A study of Mus musculus with 28 samples.

Results

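The 32 genes described here carry a cell from the import of glucose to the release of lactate, and sense low oxygen. They comprise the hexose transporters Slc2a1, Slc2a3 and Slc2a5, the glycolytic enzymes from the hexokinases Hk1 and Hk2 to the pyruvate kinase Pkm, the lactate dehydrogenases Ldha and Ldhb, the lactate transporters Slc16a1 and Slc16a3, the pyruvate dehydrogenase kinases Pdk1, Pdk2 and Pdk4, the glycogen enzymes Gys1 and Pygb, and the hypoxia genes Hif1a, Egln3, Bnip3 and Vegfa. They were taken by gene symbol from the mouse rows of the count table, 32 of 40481 mouse genes, and all 32 passed the filter on low counts in every comparison.

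RNA was sequenced from microglia, the resident macrophages of the brain, and from astrocytes, sorted by FACS for CD11b and for ACSA-2 respectively, from cortex, hippocampus and thalamus of each mouse. Every mouse was APOE4fl/fl, carrying a floxed human APOE4, and every mouse received tamoxifen at 3.8 months of age, in 2 intraperitoneal doses of 100 mg/kg, with cells taken 10 days after it. The APPPS1 transgenes, which make plaques form, and ALDH1L1-CreERT, a tamoxifen-inducible Cre driven by an astrocyte promoter, set the 4 groups. In each sort these were 2 APOE4fl/fl mice (amyloid-free Cre-negative), 2 APOE4fl/fl::ALDH1L1-CreERT mice (amyloid-free Cre-positive), 5 APPPS1::APOE4fl/fl mice (APPPS1 Cre-negative) and 4 APPPS1::APOE4fl/fl::ALDH1L1-CreERT mice (APPPS1 Cre-positive). No group carried a mouse-type Apoe genotype or went without tamoxifen, so the amyloid-free mice are controls for amyloid and not untreated mice. The labels name 5 mice in each APPPS1 group, where the series text gives 4, and the labels were followed. Of the 5 APPPS1 Cre-positive mice, mouse 459, whose library labelled microglia held 27710 CPM of summed astrocyte markers and 135 CPM of summed microglia markers, and the reverse in its library labelled astrocyte (175 and 33589 CPM), was left out. Each replicate is a separate mouse, and both sorts come from the same 13 mice.

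Glycolysis splits glucose into pyruvate in the cytosol. Pyruvate then either enters mitochondria through the pyruvate dehydrogenase complex, which the Pdk kinases switch off, or becomes lactate and leaves the cell through Slc16 carriers. Astrocytes are known for storing the brain's glycogen and for releasing lactate, and activated macrophages for raising glycolysis. HIF-1, the oxygen-regulated transcription factor whose alpha subunit Hif1a encodes, induces many glycolytic genes by binding a short core, ACGTG or GCGTG, in their regulatory DNA, and its own removal in normal oxygen is started by prolyl hydroxylases such as Egln3.

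The promoters of the genes with the largest rises with amyloid in microglia are shown first, because that short core can be read in them directly. RefSeq promoters on GRCm38.p6, from 250 bases before to 50 after each transcription start, were found for 31 of the 32 genes, 46 promoters in all. Below, capitals mark every match to ACGTG or GCGTG on either strand, so that a match on the opposite strand reads CACGT or CACGC, and matches on the 2 strands may overlap within CACGTG. The first 4 belong to Egln3, Hif1a, Gapdh and Tpi1, whose fitted rises were the largest, and the last 2 to Ldha and Bnip3, which hold the most matches among the genes that rose.
Egln3, chr12:54203825-54204124, minus strand: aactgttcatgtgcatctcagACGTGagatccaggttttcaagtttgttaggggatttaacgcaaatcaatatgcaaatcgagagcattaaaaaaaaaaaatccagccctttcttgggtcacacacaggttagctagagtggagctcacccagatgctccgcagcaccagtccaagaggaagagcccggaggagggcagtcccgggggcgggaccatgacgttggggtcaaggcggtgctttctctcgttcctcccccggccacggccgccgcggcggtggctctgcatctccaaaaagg
Hif1a, chr12:73907617-73907916, plus strand: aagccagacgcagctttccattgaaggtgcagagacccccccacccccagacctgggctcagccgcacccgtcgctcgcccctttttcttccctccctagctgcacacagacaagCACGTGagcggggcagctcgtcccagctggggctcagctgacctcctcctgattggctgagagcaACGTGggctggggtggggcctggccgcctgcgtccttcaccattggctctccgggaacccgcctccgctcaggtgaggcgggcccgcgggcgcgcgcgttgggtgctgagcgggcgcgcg
Gapdh, chr6:125165724-125166023, minus strand: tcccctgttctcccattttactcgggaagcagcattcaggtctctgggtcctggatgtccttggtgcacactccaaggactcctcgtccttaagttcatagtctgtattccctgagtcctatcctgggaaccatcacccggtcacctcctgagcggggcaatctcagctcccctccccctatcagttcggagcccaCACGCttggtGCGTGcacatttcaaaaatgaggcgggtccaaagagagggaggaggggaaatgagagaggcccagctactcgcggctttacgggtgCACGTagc
Tpi1, chr6:124814109-124814408, minus strand: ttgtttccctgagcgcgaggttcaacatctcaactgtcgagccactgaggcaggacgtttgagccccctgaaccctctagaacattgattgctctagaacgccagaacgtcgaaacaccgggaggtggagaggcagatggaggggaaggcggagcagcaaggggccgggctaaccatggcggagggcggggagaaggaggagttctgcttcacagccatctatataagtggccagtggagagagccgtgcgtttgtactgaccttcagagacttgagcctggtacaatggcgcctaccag
Ldha, chr7:46845554-46845853, plus strand: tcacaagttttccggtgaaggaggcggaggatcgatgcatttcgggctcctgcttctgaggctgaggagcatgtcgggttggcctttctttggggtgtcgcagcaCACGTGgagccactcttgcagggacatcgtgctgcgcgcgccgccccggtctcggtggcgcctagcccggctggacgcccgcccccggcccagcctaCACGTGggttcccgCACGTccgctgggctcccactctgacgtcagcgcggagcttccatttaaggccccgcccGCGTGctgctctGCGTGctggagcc
Bnip3, chr7:138909457-138909756, minus strand: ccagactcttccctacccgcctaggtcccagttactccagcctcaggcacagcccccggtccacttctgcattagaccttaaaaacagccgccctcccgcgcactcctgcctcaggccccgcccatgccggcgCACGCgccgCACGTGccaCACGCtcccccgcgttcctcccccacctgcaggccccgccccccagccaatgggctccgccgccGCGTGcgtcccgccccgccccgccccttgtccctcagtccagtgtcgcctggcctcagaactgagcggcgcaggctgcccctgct
The Ldha window held 7 matches, the Bnip3 window 5, the Gapdh and Hif1a windows 3 each and the Egln3 window 1, while none was found in the Tpi1 window. Among all 46 promoters of the 32 genes, 34 (73.9%) held ACGTG or GCGTG, against 14380 of 32851 RefSeq promoters of the same length (43.8%). Among the 18 promoters of the 12 genes that rose with amyloid in microglia, 15 (83.3%) held one. ACGTG was in 23 of the 46 promoters and in 19.6% of all promoters, and GCGTG in 23 of the 46 and in 32.4% of all. The palindrome CACGTG, which contains ACGTG, was in 15.2% and 7.2%. Several promoters belong to the same gene and overlap, and base composition was not matched, so these shares are a description of sequence and not of factor binding.

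Values are given as CPM, a gene's share of the mouse counts of its library after TMM scaling, with the SD over mice. Differences are log2 values of edgeR's quasi-likelihood F test with their standard errors. Benjamini-Hochberg adjustment ran over all genes of the fit, and "passed" means an adjusted p under 0.05. The 26 libraries held 26162612 to 59238523 counts. In the microglia sorts, summed microglia markers lay between 34388 and 48613 CPM in 12 mice and at 17063 CPM in mouse 26 (amyloid-free Cre-positive), which also had the highest summed monocyte and neutrophil markers, 4991 CPM, against 201 to 4759 CPM in the others. The astrocyte sorts held 79.4 to 125 CPM of the summed microglia markers. In sorted bulk cells, fewer cells of a type and less RNA per cell cannot be told apart.

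The leading member of the enzyme or carrier family differed between the 2 sorts for 6 of 8 families. Between microglia and astrocytes, averaged over the 4 groups, 11 of the 32 genes were higher in microglia and 19 were higher in astrocytes, where 76.5% of all 21612 genes tested passed in either direction (35.4% higher and 41.1% lower in microglia), so passing by itself sets these genes little apart. The microglia libraries were all above the astrocyte libraries for 7 genes and all below for 12, and the other 13 overlapped, where 16.8% of all genes tested lay all above and 18.7% all below. The median of the 32 log2 differences, microglia minus astrocytes, was -0.63, against -0.18 for all genes tested, which DESeq2 scaling moved to -0.30.

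Hexose entry differed most. Slc2a5, the fructose transporter, stood at 776 ± 227 CPM in microglia (n = 13), from 291 to 1080.1, whereas astrocytes had 0 to 50 counts per library, a median of 0.0189 CPM and at most 0.698 CPM. The fitted difference was 12.35 ± 0.75 (adjusted p = 8.18e-13). Slc2a1, the GLUT1 glucose transporter, went the other way, with 243 ± 36.4 CPM in astrocytes and 84.6 ± 20.1 CPM in microglia, a difference of -1.59 ± 0.10. Slc2a3, the high-affinity GLUT3 known best from neurons, was low in both and higher in microglia, 47 ± 29 CPM against 7.78 ± 2.82 CPM (2.68 ± 0.31). Scaled per kb of exon so that genes can be compared, Slc2a5 made up 87.2% ± 5.14 (SD, n = 13) of these 3 transporters in microglia, and Slc2a1 98.4% ± 0.555 in astrocytes.

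Hexokinases trap glucose in the cell as glucose 6-phosphate. Hk2 stood at 285 ± 45.4 CPM in microglia and 3.3 ± 1.45 CPM in astrocytes (6.53 ± 0.29), and Hk1, the housekeeping form, at 30 ± 7.37 CPM and 90.2 ± 20 CPM (-1.59 ± 0.13). Per kb, microglia held 60.3% ± 8.36 Hk2, 35.3% ± 7.65 Hk3 and 4.42% ± 0.866 Hk1, and astrocytes 94.2% ± 3.23 Hk1. Hk3, a hexokinase of myeloid cells that is not among the 32, was 11.09 higher in microglia on the log2 scale.

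The next steps split in the same manner. Phosphofructokinase, which commits sugar to glycolysis, was 86.4% ± 8.39 Pfkl per kb in microglia and 76.6% ± 2.58 Pfkm in astrocytes, with Pfkp at 11% ± 1.25 there. Pfkm stood at 318 ± 45.2 CPM in astrocytes and 9.1 ± 1.94 CPM in microglia (-5.16 ± 0.13). Pfkfb3, whose product activates phosphofructokinase, was higher in microglia, at 129 ± 20.2 CPM against 42 ± 10.5 CPM (1.58 ± 0.15). Aldolase was 98.7% ± 1.41 Aldoa in microglia and 83.3% ± 1.57 Aldoc in astrocytes. Aldoc, an astrocyte marker in its own right, was the most abundant of the 32 per kb in astrocytes at 2683 ± 417 CPM per kb, and stood at 8754 ± 1361 CPM in the astrocyte sorts and 16.4 ± 12 CPM in the microglia sorts. Aldoa itself was at 1572 ± 588 CPM and 1549 ± 167 CPM, with a difference that did not pass (-0.24 ± 0.12, adjusted p = 0.0835).

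Most of the other glycolytic enzymes down to pyruvate differed far less. Gapdh, Tpi1, Pgk1, Pgam1, Eno1 and Gpi1 were all higher in astrocytes on the average over the groups, by log2 values between -0.38 (Gpi1) and -0.99 (Eno1), microglia minus astrocytes. Pkm was higher in microglia (0.61 ± 0.15, adjusted p = 0.00096). Eno2, the neuronal enolase, reached only 12.3 ± 2.56 CPM in astrocytes and 1.77 ± 0.749 CPM in microglia. That was under 1% of Eno1 plus Eno2 per kb in both. Eno3, a further enolase left out of that share, held 19 to 302 CPM in microglia and 4.93 to 17 CPM in astrocytes, without TMM. Reads of near copies, also given without TMM, bear on some of these. Eno1b, a near copy of Eno1, held 31.3 to 67 CPM in astrocytes and 14 to 29.4 CPM in microglia. Aldoart1, a copy of Aldoa, held at most 9.31 CPM. How reads were split between the genes and their copies is uncertain.

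At the pyruvate branch, Ldhb was the larger form per kb in both sorts, and Ldha took 19.2% ± 5.38 of lactate dehydrogenase in microglia and 7.17% ± 0.998 in astrocytes. Those shares became 33.1% and 14% when raw counts, not counts per kb, were compared. Ldha, the form that favours lactate, stood at 546 ± 173 CPM and 258 ± 47.4 CPM (0.88 ± 0.14). Slc16a3, the MCT4 carrier that exports lactate, stood at 78.3 ± 25.1 CPM in microglia and a median of 1.26 CPM in astrocytes. Slc16a1, the MCT1 carrier, stood at 21.6 ± 4.39 CPM and 91.9 ± 13.1 CPM (-2.07 ± 0.12). Pdk1 was the leading kinase of pyruvate dehydrogenase in microglia, 44.2% ± 8.54 per kb, and Pdk2 in astrocytes, 82.2% ± 2.16, with Pdk4 at 12.3% ± 1.67 there.

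Both glycogen genes were higher in astrocytes. Pygb, brain glycogen phosphorylase, stood at 569 ± 110.4 CPM in astrocytes and 56.1 ± 13.7 CPM in microglia (-3.43 ± 0.12), and Gys1, glycogen synthase, at 46 ± 8.43 CPM and 10.4 ± 2.81 CPM (-2.28 ± 0.12). Of the hypoxia genes, Vegfa, the vascular growth factor, was far higher in the astrocyte sorts, 54.9 ± 13.3 CPM against 1.09 ± 0.441 CPM (-5.70 ± 0.23). Hif1a was higher in microglia, 154 ± 77.6 CPM against 52 ± 8.53 CPM (1.16 ± 0.16), as was Egln3 (1.68 ± 0.45), and Bnip3, a mitophagy receptor, did not pass (0.14 ± 0.12, adjusted p = 0.318). The Egln3 difference lost its call in limma voom (adjusted p = 0.118).

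The sorts were also compared within each amyloid state, in contrasts added after seeing the data. In amyloid-free mice alone 26 of the 32 genes passed, where 61.9% of all genes did. Pkm (0.12 ± 0.25), Pfkl (0.12 ± 0.24), Ldha (0.42 ± 0.23), Hif1a (0.42 ± 0.27) and Egln3 (-0.68 ± 0.74) did not pass there, and in APPPS1 mice alone they passed as higher in microglia, at 1.10, 1.10, 1.34, 1.90 and 4.05. In APPPS1 mice alone 27 passed, where 75.8% of all genes did. Gapdh (-0.08 ± 0.15), Tpi1 (-0.02 ± 0.16), Pgk1 (-0.07 ± 0.14) and Gpi1 (-0.02 ± 0.15) did not pass there, and they passed as higher in astrocytes in amyloid-free mice alone. Gapdh stood at 477 ± 54.8 CPM in amyloid-free microglia (n = 4) and 1181 ± 340.0 CPM in APPPS1 microglia (n = 9), against 1208 ± 18.9 CPM and 1245 ± 195 CPM in the astrocytes of the same mice. Egln3 stood at 0.722 ± 0.694 CPM and 12.2 ± 5.71 CPM in microglia and at 1.15 ± 0.618 CPM and 0.734 ± 0.383 CPM in astrocytes. The test of the difference between the states passed for Egln3, Hif1a, Gapdh, Tpi1 and Pgk1 and not for Pkm, Pfkl, Ldha and Gpi1.

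**Figure D1:**
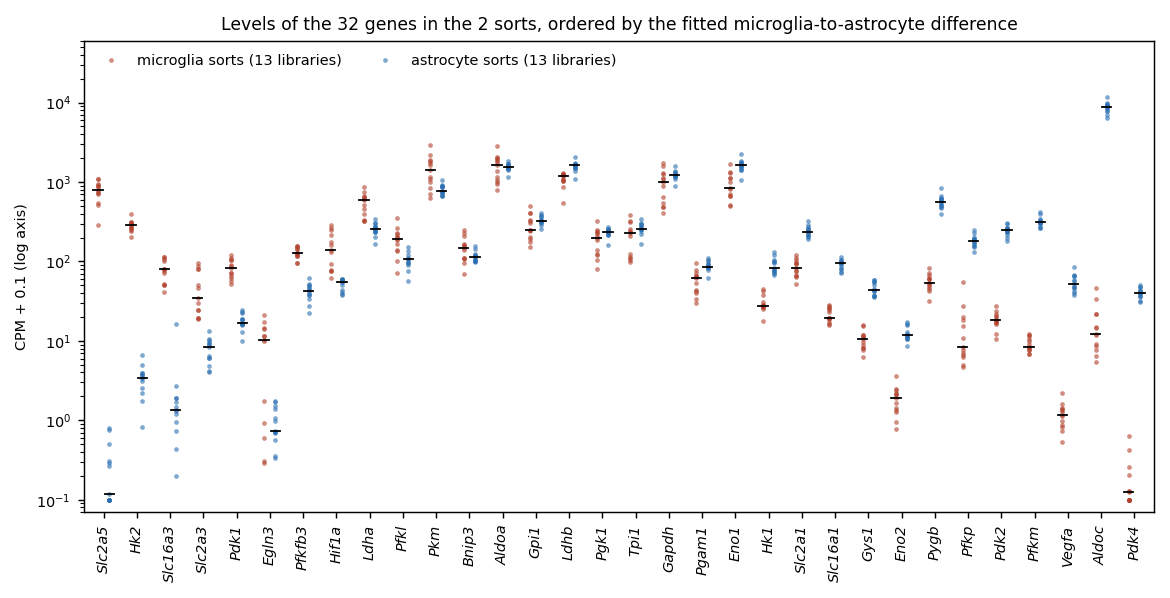
CPM plus 0.1 on a log axis for each of the 32 genes, 13 microglia libraries and 13 astrocyte libraries, with a black bar at each median, ordered by the fitted difference. Slc2a5, Hk2 and Slc16a3 at the left lie far higher in microglia and Pdk4, Aldoc and Vegfa at the right far higher in astrocytes, while Bnip3 and Aldoa in the middle overlap.

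**Figure D2:**
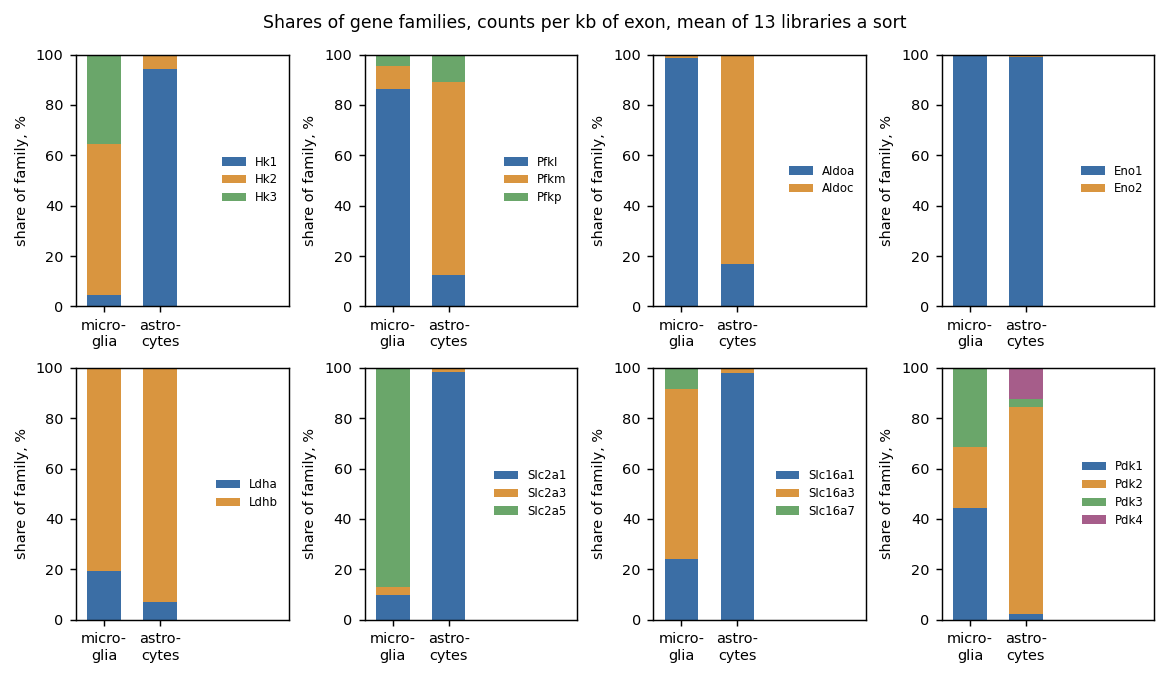
Mean share of each family, in counts per kb of exon, for 8 families in the 2 sorts (n = 13 libraries each). The leading form differs between microglia and astrocytes for hexokinases, phosphofructokinases, aldolases, hexose transporters, lactate carriers and pyruvate dehydrogenase kinases. It is Eno1 and Ldhb in both sorts for the enolases, of which only Eno1 and Eno2 were counted, and lactate dehydrogenases.

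Genes around the pathway were taken as further lists, whose counts stand beside the 76.5% of all genes that passed in either direction (35.4% higher and 41.1% lower in microglia). Of 22 glycogen genes, 14 were higher in astrocytes and 6 in microglia: Ppp1r3c, a glycogen-targeting phosphatase subunit, was at -7.44 and the muscle-type phosphorylase Pygm at -6.04, and the liver-type phosphorylase Pygl was higher in microglia (2.53). Of 8 pentose phosphate genes, 6 were higher in microglia, among them Pgd (2.29), and Tkt was lower (-0.41). Of 12 genes of pyruvate entry into mitochondria, 10 were higher in astrocytes, among them pyruvate carboxylase Pcx (-4.31), and Pdk3 was higher in microglia (1.24). The hypoxia list held 9 genes higher in microglia and 14 lower of 32, with differences from -6.62 to 8.85. The second HIF alpha subunit Epas1 was among the lower, at -5.38. The astrocyte sorts also held 2303 to 19487 CPM of summed oligodendrocyte markers, 70.3 to 1023 CPM of endothelial and 177 to 2278 CPM of pericyte markers. The part of these cells in the differences between the sorts, those of Slc2a1 and Epas1 among them, was not tested.

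Amyloid was accompanied in microglia by a rise of much of the glycolytic chain. Averaged over Cre, 12 of the 32 genes were higher in APPPS1 microglia and 3 lower, at a background of 9.58% of all 17593 genes tested passing in either direction (6.06% higher and 3.52% lower). The genes that rose were the enzymes Gapdh, Tpi1, Pgk1, Aldoa, Pgam1, Pfkl, Eno1, Pkm and Ldha and the hypoxia genes Hif1a, Egln3 and Bnip3. The median of the 32 log2 differences was 0.37, against -0.05 for all genes tested. At an unadjusted p under 0.05 in edgeR there were 19 of the 32, and 4783 of all 17593 genes tested. In the same sorts the markers of several other cells were lower with amyloid. All 8 monocyte and neutrophil markers had negative differences and 1 passed, and their summed level was 1237 to 4991 CPM in amyloid-free mice and 201 to 4759 CPM in APPPS1 mice. All 10 neuron markers were negative and 2 passed (13.7 to 28.3 CPM and 3.87 to 11.4 CPM summed), and 9 of 10 endothelial markers were negative and 5 passed (78.8 to 367 CPM and 37.1 to 125 CPM). All 10 astrocyte markers were negative and 5 passed. Of the 10 microglia markers 4 passed as higher and none as lower.

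These calls rest on 4 amyloid-free mice. Without mouse 759 the 15 calls became 3 (Gapdh, Tpi1 and Hif1a), without mouse 26 they became 8 and without mouse 465 they became 9, as the share of all genes that passed went to 2.06%, 2.32% and 3.44%. In Cre-positive mice alone 6 passed (7.05% of all genes) and in Cre-negative mice alone none did (0.313%). Each of the 12 kept a positive sign in both, but they were chosen as positive on the average of these same mice. A covariate for the markers of other cells also removed every call, with the 12 at adjusted p = 0.845 to 0.881 and a median log2 of 0.997, against 0.93 without it, and with it no gene passed of the 17593.

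On GRCm38 Gapdh (ENSMUSG00000057666) lies at chr6:125161715-125166467, Tpi1 (ENSMUSG00000023456) at chr6:124810586-124814296 and Egln3 (ENSMUSG00000035105) at chr12:54178981-54203860. Gapdh, the enzyme that makes the first high-energy product of glycolysis, had 537 and 479 CPM in amyloid-free Cre-negative mice, 404 and 487 CPM in amyloid-free Cre-positive mice, 1114, 1256, 644, 1307 and 1744 CPM in APPPS1 Cre-negative mice and 986, 1091, 896 and 1589 CPM in APPPS1 Cre-positive mice. Every APPPS1 library was above every amyloid-free library, and mouse 469 was the lowest of them. The fitted rise was 1.28 ± 0.22, or 2.42-fold (adjusted p = 0.00458). Tpi1, which joins the products of aldolase into 1 stream, had 106 and 115 CPM in amyloid-free Cre-negative mice, 98.5 and 112 CPM in amyloid-free Cre-positive mice, 234, 314, 126, 258 and 382 CPM in APPPS1 Cre-negative mice and 243, 226, 212 and 327 CPM in APPPS1 Cre-positive mice. The groups again did not overlap, with mouse 469 closest to the controls, and the rise was 1.23 ± 0.22 (adjusted p = 0.00662).

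Hif1a (ENSMUSG00000021109, chr12:73901375-73947530) had 62.1 and 76 CPM in amyloid-free Cre-negative mice, 76.6 and 77.6 CPM in amyloid-free Cre-positive mice, 132, 176, 93.1, 245 and 284 CPM in APPPS1 Cre-negative mice and 161, 213, 265 and 140.4 CPM in APPPS1 Cre-positive mice. The amyloid-free mice lay within a narrow band and all 9 APPPS1 mice above it, with a rise of 1.36 ± 0.27 (adjusted p = 0.00949). Egln3, the prolyl hydroxylase that marks HIF alpha subunits for removal and is itself induced by HIF, had 0.815 and 0.211 CPM in amyloid-free Cre-negative mice, 0.193 and 1.67 CPM in amyloid-free Cre-positive mice, 10, 17.3, 0.505, 14.5 and 21 CPM in APPPS1 Cre-negative mice and 11.3, 9.88, 14 and 11.5 CPM in APPPS1 Cre-positive mice. In counts this was 6 to 43 per amyloid-free library, 18 in mouse 469 and 346 to 710 in the other 8 APPPS1 mice, so mouse 469 lay among the controls and the rest far above. The fitted rise was 4.12 ± 0.79, or 17.4-fold (adjusted p = 0.00839), and it did not pass in limma voom (adjusted p = 0.0882) or without mouse 759.

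Of the remaining enzymes, Pgk1, which makes ATP from the product of Gapdh, had 139 and 103 CPM in amyloid-free Cre-negative mice, 79.8 and 122 CPM in amyloid-free Cre-positive mice, 229.6, 251, 124, 225 and 319.9 CPM in APPPS1 Cre-negative mice and 212, 195, 184 and 242 CPM in APPPS1 Cre-positive mice. Only mouse 469 overlapped the controls, and the rise was 0.96 ± 0.20 (adjusted p = 0.0122). Aldoa, the aldolase of microglia, ran from 782 to 1149 CPM in amyloid-free mice and from 1072 to 2848 CPM with a median of 1827 in APPPS1 mice (0.90 ± 0.20, adjusted p = 0.0144). Pkm, the last ATP-making step, ran from 620.5 to 1142 and from 1001 to 2934 CPM, with a median of 1715 in the latter (1.04 ± 0.25, adjusted p = 0.0222). For both genes the lowest APPPS1 values lay within the amyloid-free range.

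Pgam1 and Eno1 sit between Pgk1 and Pkm in the chain. Pgam1 went from 37.3 ± 6.65 CPM in the 4 amyloid-free mice to 66 ± 15.4 CPM in the 9 APPPS1 mice (0.81 ± 0.18, adjusted p = 0.0149), and Eno1 from 621 ± 152 CPM to 1089.5 ± 328 CPM (0.76 ± 0.22, adjusted p = 0.0434). Pfkl, the microglial phosphofructokinase, went from 124 ± 49.1 CPM to 217 ± 62.1 CPM (0.83 ± 0.19, adjusted p = 0.0185). Ldha, which turns pyruvate into lactate, went from 376 ± 67.7 CPM to 622 ± 148 CPM (0.70 ± 0.20, adjusted p = 0.0402), and Bnip3 from 95.2 ± 18.6 CPM to 174 ± 45.5 CPM (0.86 ± 0.20, adjusted p = 0.0179). For each of these 5 genes at least 1 APPPS1 library lay within the amyloid-free range.

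Not every step that brings sugar in passed. The transporters Slc2a8 and Slc2a10, from a further list given below, rose. Of the genes described here, the transporters Slc2a1, Slc2a3 and Slc2a5 and the hexokinases Hk1 and Hk2 did not pass. Slc2a1 came closest, at 75.4 and 65 CPM in amyloid-free Cre-negative mice, 52.3 and 67.7 CPM in amyloid-free Cre-positive mice, 92.6, 104, 63.1, 95.1 and 119 CPM in APPPS1 Cre-negative mice and 110.4, 82, 76.6 and 96.2 CPM in APPPS1 Cre-positive mice, a difference of 0.49 ± 0.16 (adjusted p = 0.0591). Slc2a5 (0.17 ± 0.21), Hk2 (-0.23 ± 0.14), Hk1 (-0.10 ± 0.17) and Pfkfb3 (0.04 ± 0.16) lay near 0. Gpi1, between hexokinase and phosphofructokinase, was at 0.61 ± 0.23 (adjusted p = 0.106). The lactate carriers Slc16a3 (0.43 ± 0.22) and Slc16a1 (0.04 ± 0.19), the kinases Pdk1 (0.27 ± 0.22) and Pdk2 (0.24 ± 0.18), Ldhb (0.22 ± 0.16), Pfkm (0.01 ± 0.18), Eno2 (-0.34 ± 0.39), Gys1 (0.45 ± 0.18), Pygb (0.32 ± 0.15) and Vegfa (-0.13 ± 0.39) did not pass either. Slc2a3 was at -0.97 ± 0.39 (adjusted p = 0.123), with 81 and 29.5 CPM in amyloid-free Cre-negative mice, 80 and 96.5 CPM in amyloid-free Cre-positive mice, 86.4, 19.5, 19.6, 18.6 and 24.7 CPM in APPPS1 Cre-negative mice and 46.2, 50.5, 34.2 and 24.3 CPM in APPPS1 Cre-positive mice. Its level was high in mice 26 and 439, the 2 microglia libraries with the most summed monocyte and neutrophil markers (4991 and 4759 CPM), and also in mice 465 and 22 (2009 and 2637 CPM), and the part of those cells in Slc2a3 was not tested.

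The 3 genes that fell, Aldoc, Pfkp and Pdk4, are all far higher in astrocytes. Aldoc had 14.5 and 21.7 CPM in amyloid-free Cre-negative mice, 46.6 and 33.6 CPM in amyloid-free Cre-positive mice, 12.1, 14.6, 21.5, 7.58 and 5.37 CPM in APPPS1 Cre-negative mice and 11.6, 9.12, 6.3 and 8.63 CPM in APPPS1 Cre-positive mice, with the amyloid-free Cre-positive mice highest (-1.39 ± 0.29, adjusted p = 0.0113). Pfkp had 27.8 and 7.58 CPM in amyloid-free Cre-negative mice, 18.2 and 55.5 CPM in amyloid-free Cre-positive mice, 20.1, 8.3, 4.57, 6.22 and 4.86 CPM in APPPS1 Cre-negative mice and 10.8, 6.5, 6.84 and 15.3 CPM in APPPS1 Cre-positive mice and overlapped widely (-1.48 ± 0.42, adjusted p = 0.0402). Pdk4 was close to absent, with 1 and 6 counts in amyloid-free Cre-negative mice, 10 and 14 in amyloid-free Cre-positive mice, 1, 0, 1, 4 and 0 in APPPS1 Cre-negative mice and 0, 0, 0 and 0 in APPPS1 Cre-positive mice, and its fitted value (-4.21 ± 1.09, adjusted p = 0.0353) depends on the prior count. Summed astrocyte markers in the microglia sorts were 222 to 440 CPM in amyloid-free mice and 175 to 273 CPM in APPPS1 mice, and 5 of the 10 astrocyte markers passed as lower. Pfkp was highest in mouse 26 (55.5 CPM), which had the lowest astrocyte marker sum of the amyloid-free mice, 222 CPM. Its highest APPPS1 value was in mouse 439 (20.1 CPM). Mice 26 and 439 had the most summed monocyte and neutrophil markers (4991 and 4759 CPM), while Pfkp was also at 27.8 CPM in mouse 465 (2009 CPM). The part of either kind of cell in the 3 falls was not tested. None of the 3 passed without mouse 759, and with mouse 26 left out Aldoc alone did.

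**Figure D3:**
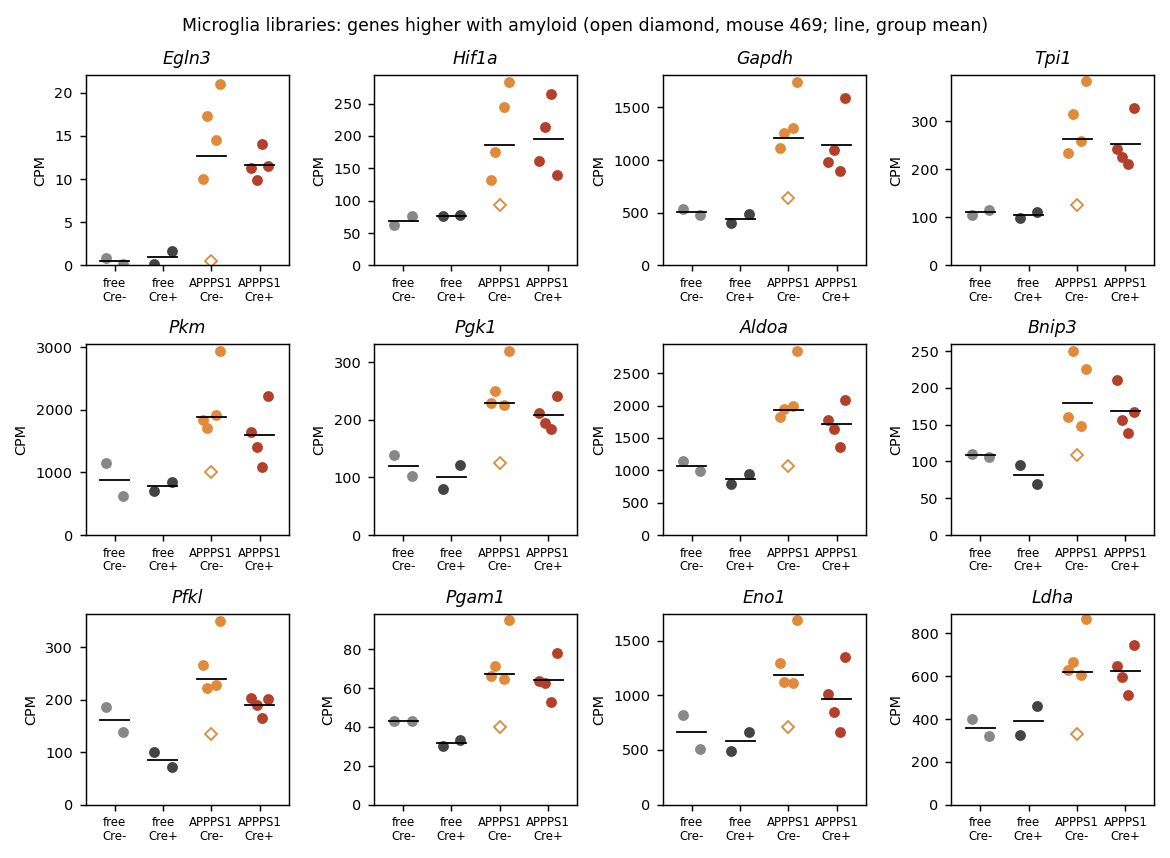
CPM in each of the 13 microglia libraries for the 12 genes that rose with amyloid, by group, with a line at each group mean. Gapdh, Tpi1 and Hif1a are higher in all 9 APPPS1 libraries than in any amyloid-free library, and the open diamond of mouse 469 is the lowest APPPS1 point in 11 of the 12 panels.

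Mouse 469, an APPPS1 Cre-negative animal, was the lowest APPPS1 microglia library for 11 of the 12 genes that rose, and exceeded every amyloid-free library for only 3 of them. Mouse 460 was lowest for the other gene, Eno1, and exceeded every control for 9. Mouse 779 was the highest for 11 of the 12. Cst7, a gene known to rise in microglia at plaques, stood at 262 CPM in mouse 469, against 642 to 2370 CPM in the other APPPS1 microglia and 8.78 to 13.7 CPM in amyloid-free microglia, and 74 counts of human APP, the transgene, were in its library. In the astrocyte libraries mouse 469 was the lowest APPPS1 mouse for 1 of the 12. Over all 13 mice 3 of the 32 genes had every APPPS1 library above every control, as had 2.58% of all genes tested, and without mouse 469 these were 10 of the 32 and 5.16%. Without mouse 469 none of the 32 lay all below the controls, against 2.26% of all genes, which makes 7.41% of all genes apart in either direction. In the fit without mouse 469, 17 of the 32 passed, 14 higher and 3 lower, where 13.9% of all genes passed in either direction. Leaving out a library can only add to the genes that lie apart, and mouse 469 was singled out on these same genes. The higher counts without it were thus close to fixed in advance.

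The further lists around the pathway held few calls, beside the 9.58% of all genes that passed in either direction (6.06% higher), so that their counts set them little apart. In microglia with amyloid 1 of 14 other glycolytic genes passed, Galm (0.62), a sugar mutarotase, and 1 of 8 pentose phosphate genes, Pgls (0.68). Of 12 pyruvate entry genes, the mitochondrial pyruvate carrier subunit Mpc1 (0.77) and the kinase Pdk3 (0.83) rose. Among 13 transporters and chaperones Bsg (0.82), the chaperone of the lactate carriers, Slc2a8 (0.63) and Slc2a10 (2.23) rose, and among 21 glycogen genes Pgm1 (0.86) did. Of 32 further hypoxia genes, Lox (4.36), a collagen cross-linking enzyme, and Arnt2 (2.93), a partner subunit of the HIF family, rose, and Epas1 (-1.42) and Cxcr4 (-1.24) fell. Epas1 is also a gene of blood vessels, and summed endothelial markers in the microglia sorts were 78.8 to 367 CPM in amyloid-free mice and 37.1 to 125 CPM in APPPS1 mice, a part that was not tested.

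Astrocytes of the same mice showed no call. None of the 32 genes passed with amyloid, at a background of 0% of 20052 genes tested, and in edgeR 1 gene, Slc2a1, had an unadjusted p under 0.05, as did 1409 of the 20052. DESeq2 called 254 of all genes and limma voom 0, and neither called any of the 32. The median of the 32 was -0.07, against 0.04 for all genes, with 9 positive and 23 negative. Slc2a1 had 257 and 201 CPM in amyloid-free Cre-negative mice, 192 and 209 CPM in amyloid-free Cre-positive mice, 258, 250.4, 238, 219 and 217 CPM in APPPS1 Cre-negative mice and 284, 272, 235 and 320.2 CPM in APPPS1 Cre-positive mice (0.26 ± 0.11, adjusted p = 0.614), with groups that overlapped. All 10 endothelial markers, whose cells are rich in Slc2a1, were also positive with amyloid in the astrocyte sorts, and their sum was 70.3 and 98.7 CPM in the amyloid-free Cre-positive mice against 199 to 1023 CPM in all others, a part that was not tested.

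None of the 12 genes that rose in microglia passed in astrocytes, and for the genes given here the standard errors were below those in microglia. Gapdh had 1209 and 1193 CPM in amyloid-free Cre-negative mice, 1197 and 1235 CPM in amyloid-free Cre-positive mice, 1171, 1585, 1321, 1076 and 1205 CPM in APPPS1 Cre-negative mice and 1384, 892, 1315 and 1258 CPM in APPPS1 Cre-positive mice, a difference of 0.04 ± 0.12. Tpi1 differed by -0.02 ± 0.14, Pgk1 by -0.06 ± 0.11, Hif1a by -0.09 ± 0.15 and Bnip3 by -0.08 ± 0.11. Egln3 was at 0.237 to 1.66 CPM over all 13 astrocyte libraries and differed by -0.61 ± 0.50. All 12 overlapped between amyloid-free and APPPS1 astrocytes. Mouse 458 was the lowest APPPS1 astrocyte library for 10 of the 12, as with Gapdh at 892 CPM. Aldoc, Pfkp and Pdk4, which fell in the microglia sorts, differed by -0.08 ± 0.13, -0.21 ± 0.14 and -0.09 ± 0.13 in astrocytes.

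The difference of the amyloid response between the sorts was itself tested in 1 fit of the 26 libraries. It passed for 9 of the 32 genes, 8 more positive in microglia and 1 more negative, where 1.5% of all 21612 genes passed in either direction (0.773% more positive and 0.731% more negative). The 8 were Egln3 (4.73 ± 0.93, adjusted p = 0.0101), Hif1a (1.48 ± 0.32), Tpi1 (1.27 ± 0.29), Gapdh (1.27 ± 0.27), Pgk1 (1.06 ± 0.25), Aldoa (1.01 ± 0.24), Pgam1 (1.0 ± 0.22) and Bnip3 (0.97 ± 0.25, adjusted p = 0.0484), and the other was Pdk4 (-4.22 ± 0.74). Pfkl (0.98 ± 0.29), Pkm (0.98 ± 0.30), Ldha (0.92 ± 0.27) and Eno1 (0.84 ± 0.28) had values of like size that did not pass, with adjusted p = 0.0938 to 0.142.

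With the mouse as a block, since both sorts come from the same animals, only Hif1a passed (1.42, adjusted p = 0.0376), while 0.37% of all genes passed. The 8 ranged from adjusted p = 0.0376 to 0.139 and Pdk4 was at adjusted p = 0.111. All signs were kept, in a fit of the same libraries that chose these genes. Most calls were lost in the fits without mouse 22, 26, 465 or 759, and the reason was not tested. Each of these fits leaves 1 mouse in an amyloid-free group, so only effect sizes are given. The median log2 of the 8 was 1.18, 1.26, 1.19 and 1.12 there, against 1.16 with all mice. The 8 were chosen in a fit of mostly the same libraries. The count was 5 without mouse 475 (0.927% of all genes passed) and 13 without mouse 469 (2.69%). It was 4 in Cre-positive mice alone (3.85%) and 0 in Cre-negative mice alone (0.074%).

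**Figure D4:**
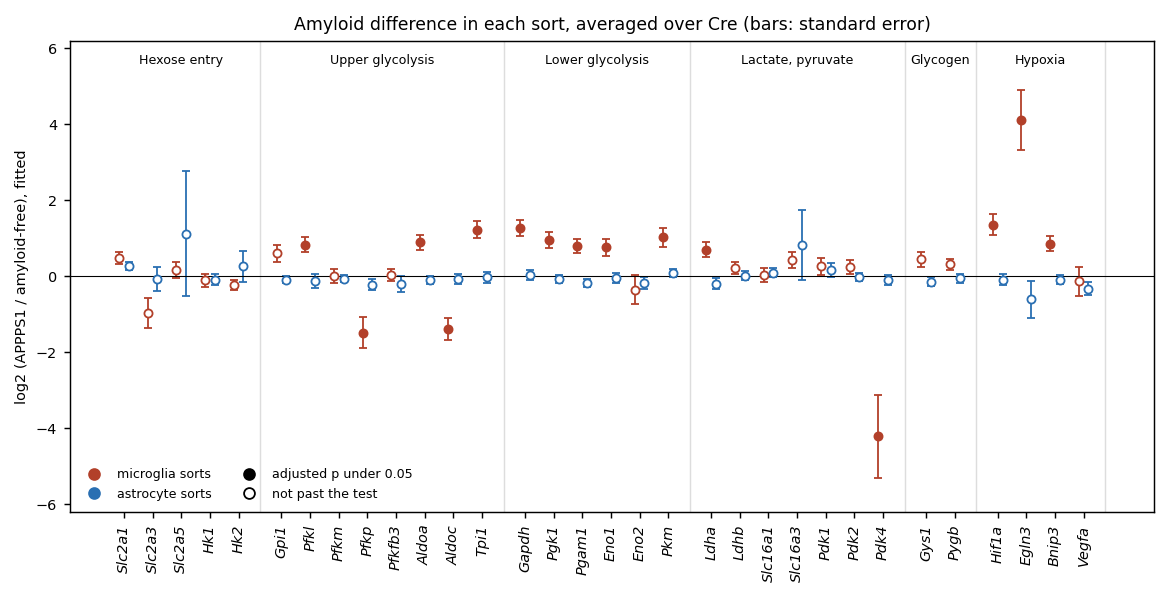
Fitted log2 difference of APPPS1 over amyloid-free for the 32 genes in microglia and in astrocytes, ordered by role, with the standard error as bars and filled points where the adjusted p was under 0.05. Filled microglia points lie above 0 from Pfkl to Ldha and for 3 hypoxia genes and below 0 for Pfkp, Aldoc and Pdk4, and every astrocyte point is open.

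Removing APOE4 from astrocytes was compared through Cre in each sort and amyloid state. In APPPS1 microglia none of the 32 genes passed, at a background of 0.00568%, and DESeq2 called none. In edgeR 2 had an unadjusted p under 0.05, Slc2a5 (-0.51 ± 0.23) and Hk1 (-0.43 ± 0.19), as had 616 of all 17593 genes tested. Slc2a5 had 858, 516, 546 and 697 CPM in Cre-positive and 917, 943, 1080.1, 794 and 896 CPM in Cre-negative APPPS1 mice, which overlapped. The 12 genes that rose with amyloid had Cre differences of -0.09 ± 0.23 for Gapdh, -0.06 ± 0.23 for Tpi1, 0.09 ± 0.28 for Hif1a and -0.11 ± 0.67 for Egln3, and all 12 overlapped between the Cre states. The median of the 32 was -0.10, against -0.01 for all genes.

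In APPPS1 astrocytes, where Cre acts, none passed, at a background of 0.00997%, and DESeq2 called none. In edgeR 4 had an unadjusted p under 0.05, as had 1343 of all 20052 genes tested. The 4 were Hk1 (-0.47 ± 0.16, adjusted p = 0.7), Pkm (-0.29 ± 0.12), Eno1 (-0.33 ± 0.14) and Gys1 (-0.30 ± 0.14). Hk1 had 78.9, 76, 67.3 and 72.3 CPM in Cre-positive and 131, 101, 95.1, 97.6 and 82 CPM in Cre-negative mice. It was the 1 gene of the 32 whose values did not overlap here. The share of all genes that lay apart in this comparison was not counted, so the separation by itself shows little. Eno1, with 1615, 1069, 1601 and 1415 CPM against 1649.6, 2256, 1743, 1519 and 1744 CPM, overlapped. The median of the 32 was -0.18, with 25 negative, against -0.00053 for all genes.

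The amyloid-free Cre comparisons set 2 mice against 2. In microglia none of the 32 passed (background 0.0114%). In edgeR 5 had an unadjusted p under 0.05, as had 2596 of all 17593 genes tested, a like share. The 5 were Pfkl (-0.85 ± 0.31), Slc16a3 (0.94 ± 0.36), Pygb (-0.61 ± 0.25), Aldoc (1.20 ± 0.50) and Slc2a5 (-0.75 ± 0.34), all with adjusted p of at least 0.26. Slc16a3 was at 52.3 and 114 CPM in the Cre-positive mice 22 and 26 and 49.7 and 41.4 CPM in the Cre-negative mice. Without mouse 22, 3 passed, where 4.49% of all genes did, but that fit leaves mouse 26, the library low in microglia markers, as the lone Cre-positive sample, assumed to vary like the other groups. In astrocytes none passed (background 0.204%, 0.0449% higher and 0.16% lower), and Pygb had the lowest adjusted p, 0.175, with 594 and 843 CPM in Cre-positive and 523 and 399 CPM in Cre-negative mice (0.63 ± 0.19). DESeq2 called Pygb alone of the 32, where it called 875 of all 20052 genes (4.36% in either direction, 1.16% higher). That call sets Pygb little apart.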

How the data were processed

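The authors deposited 1 table of raw counts per gene for 28 libraries of 14 mice. Per the submitters' processing notes, the tools were bcl2fastq, the aligner STAR and the counter featureCounts (Subread), on GRCm38 and GRCh38; settings are not given in the sources used here. Gene IDs on more than 1 row (258, with identical counts) were kept once, giving 40481 mouse and 55093 human genes. Human genes, 0.042% to 0.2373% of the counts, were kept out of library sizes and tests, and strandedness is not given. Mouse 459 was left out, as the rule for these genes states, giving 13 mice.

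Tests used edgeR 4.0.16 in R 4.3.3 with TMM scaling, its default filter by group and quasi-likelihood F tests, with Benjamini-Hochberg adjustment over every gene of the fit. Each sort had 1 fit of 13 libraries, and comparisons of the sorts 1 fit of 26, with 1 term per genotype group (and sort). Standard errors are the absolute log2 difference over the square root of F. The fits were tested on simulated data. DESeq2 1.42.0, limma voom 3.58.1, no filter, mouse 459 kept, each Cre state alone, a marker covariate, the mouse as a block and leaving out each mouse were the alternatives. The sorts compared within each amyloid state were added after seeing the data. Levels per kb use exon lengths of GENCODE M21. All genes of the list are named in the text, and neighbours in 6 pathway lists only where they passed or as examples of a direction. The members and lists were chosen with earlier results of these data known. The same mouse gave both sorts, so mice pair the libraries. Over 8720 genes the correlation of the deviations of the same mouse in both sorts from the group means ran from -0.0471 to 0.263. Counting error and the spread between mice were not separated. Reads carry no molecular identifiers, so a count of 0 covers counting error only.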

Additional observations from a re-analysis of the deposited data

Results flagged for a closer look

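The amyloid response differed between microglia and astrocytes, by a test of the difference itself, for Egln3 (log2 4.73), Hif1a (1.48), Tpi1 (1.27), Gapdh (1.27), Pgk1 (1.06), Aldoa (1.01), Pgam1 (1.0006), Bnip3 (0.97) and Pdk4 (-4.22). Both sorts come from the same mice, and with the mouse as a block only Hif1a passed, with the other 8 at adjusted p = 0.082 to 0.139 in edgeR's test.

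Of 128 groups of 4 or 5 libraries tested for a library far from the others, 10 held one, where chance gives about 1 in 20. In microglia, Slc2a3 stood at 86.4 CPM in the APPPS1 Cre-negative mouse 439 and at 18.6 to 24.7 CPM in the others of its group, and Pfkp at 20.1 CPM against 4.57 to 8.30 CPM in the same mouse. Ldhb was at 1029 CPM in the APPPS1 Cre-negative mouse 774 against 1197 to 1236 CPM, and Pdk4 at 0.102 CPM against 0 to 0.0286 CPM. Hk1 was at 17.5 CPM in the APPPS1 Cre-positive mouse 460 against 26.7 to 28.4 CPM.

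In astrocytes, the APPPS1 Cre-negative mouse 774 had Slc16a3 at 16.1 CPM against 0.0964 to 2.64 CPM and Slc2a3 at 13.1 CPM against 4.06 to 6.29 CPM. Its summed monocyte and neutrophil markers were 303 CPM, against at most 3.95 CPM in the other astrocyte libraries, and their part was not tested. Pfkm was at 416 CPM in the APPPS1 Cre-negative mouse 447 against 302 to 329 CPM. Hif1a was at 37.8 CPM in the APPPS1 Cre-positive mouse 475 against 55.4 to 58.7 CPM, and Hk2 at 6.53 CPM in mouse 460 against 3.35 to 3.84 CPM.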

How the results depend on the processing

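With mouse 459 kept as labelled, the calls for amyloid in microglia and for the difference between the sorts were both 0. The shares of all genes that passed were 0.103% and 0.138%. Its library labelled microglia carries astrocyte genes, and Aldoc (2.55) and Pdk4 (1.496) in microglia and Pdk4 in the difference (1.72) turned positive. So did Pdk4 (8.01), Pfkm (3.13) and Hk1 (0.26) for Cre in APPPS1 microglia. In Cre-negative mice alone the 2 amyloid counts were 0, and Pgam1 in astrocytes with amyloid was 0.093; in Cre-positive mice alone they were 6 and 4. The marker covariate left 0 calls in microglia, the mouse block 1 in the difference, and DESeq2 called 1 gene for Cre in amyloid-free astrocytes; the causes were not tested. The mouse block kept all 30 calls between the sorts. Leaving out 1 mouse gave 3 to 17 calls for amyloid in microglia, 0 to 13 for the difference, 29 to 31 between the sorts, 0 to 3 for Cre in amyloid-free microglia and 0 to 0 for amyloid in astrocytes and the other Cre comparisons. In microglia with amyloid, the 12 genes that rose kept a positive sign in every alternative. They were chosen as positive in a fit of mostly the same libraries, so the sign was close to fixed in advance. In amyloid-free mice alone Egln3 turned to -0.68 between the sorts, and 4 other genes lost their call there and 4 in APPPS1 mice alone. Without TMM 21 of 64 mean levels moved by over 1 SD, and on raw counts in place of counts per kb 20 of 44 family shares did. Each amyloid-free group held 2 mice, and Pdk4, at 0 to 14 counts in the microglia libraries, had the least depth.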

Other observations

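Mouse 459, labelled APPPS1 Cre-positive, entered no comparison, and its values are given on plain CPM without TMM. Its library labelled astrocyte, which held the microglia markers, had Slc2a5 at 527 CPM, Hk2 at 252 CPM, Gapdh at 1220 CPM, Hif1a at 165 CPM and Egln3 at 6.75 CPM. Its library labelled microglia, which held the astrocyte markers, had Aldoc at 11296 CPM, Pfkm at 467 CPM, Pygb at 790.4 CPM, Pdk4 at 51.7 CPM, Slc2a5 at 0.4 CPM and Egln3 at 0.864 CPM.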
